A study of Mus musculus with 18 samples.

Results

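The genes described here are 36 cell cycle and DNA replication genes, chosen by name, and their RNA levels in cultured mouse adipocytes given growth hormone (GH) or left as controls. Of the 36, 33 had at least 1 probe set that the platform annotation gives to that gene alone, out of 8251 genes with such a probe set. The brightest probe set over all arrays stood for each gene. Ccnb1, Tyms and Bub1b had none and are not analysed here (Tyms was annotated only on probe sets shared with other genes). The 33 fall into 8 genes of replication licensing and the replication fork, 3 of nucleotide supply, 9 cyclins and cyclin-dependent kinases, 9 genes of mitosis and its checkpoint, and 4 genes of the E2F and RB system and the kinase inhibitors.

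RNA of 3T3-F442A adipocytes, fat cells grown in culture from a mouse preadipocyte line, was hybridised to 18 Affymetrix MG_U74Av2 arrays. The 6 groups were GH for 30 min, control at 30 min, GH for 4 h, control at 4 h, GH for 48 h and control at 48 h, with 3 arrays each. The titles number the arrays as experiments 1, 2 and 3, and each experiment holds 1 array of each group. No label gives the GH dose, the day of differentiation or what the controls received, and all groups are cells of a single line.

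A cell that is about to divide first loads the MCM helicase ring onto its replication origins, in a step that needs Cdc6, and then copies its DNA with the sliding clamp Pcna and with nucleotides from ribonucleotide reductase and thymidine kinase. Cyclins switch on their kinases in turn, E2F factors held back by the retinoblastoma protein drive the replication genes, and a later wave of cyclin B, Plk1 and Aurora kinase genes runs mitosis. Preadipocytes can pass through rounds of division as they are induced to become fat cells, whereas mature adipocytes are largely outside the cycle.

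The arrays are identified by their titles, and 3 samples have a description naming another group. For the GH 30 min array of experiment 1 the description gives GH for 48 h, for the GH 4 h array of experiment 3 it gives GH for 30 min, and for the control 48 h array of experiment 3 it gives control at 4 h. Socs3, a feedback inhibitor induced early by GH, had signals of 4530 to 6210 on the arrays titled GH 30 min, 226 to 505 on those titled GH 4 h and 67.9 to 206 on those titled GH 48 h, so the ranges of the GH groups did not cross and the GH arrays in question went with their titles. The control array was not checked this way. Among defining cell type markers, 9 of 10 listed adipocyte genes were measured and all 9 were above background on all 18 arrays. Of 10 preadipocyte or fibroblast genes, 9 were above background on all 18 arrays and Vim on 3. Of 6 macrophage genes, Cd68 and Cd14 were above it on 18 arrays, Csf1r on 11, Lyz2 on 6 and Adgre1 and Ptprc on 0. Of 4 endothelial genes, Pecam1 was above it on 5 arrays, Kdr on 2 and Cdh5 and Tek on 0. Of 3 muscle genes, Myod1 was above it on 18 arrays, Ckm on 12 and Myog on 1.

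Promoter motifs known from cell cycle genes were searched in RefSeq windows (GRCm38.p6) that run from 250 bases before to 50 bases after the gene start. Of the 36 genes, 30 had a window. E2F sites (TTTCCCGC, TTTCGCGC, TTTGCCGC or TTTGGCGC on either strand) were held by 7 of the 30 windows (23.3%), against 2.32% of the windows of all 27025 genes. CHR elements (TTTGAA or TTCGAA on either strand) were held by 11 (36.7%) against 19.4%, and CCAAT boxes (CCAAT on either strand) by 20 (66.7%) against 37.9%. The windows of 4 genes picked from those described below are shown, Cdk1 and Mcm7 for the GH comparison at 4 h and Mcm5 and Cdc20 for the comparison of experiments. They do not stand for the list. Of the other genes that passed between experiments, the windows of Rrm2, Tk1, Cdk4, Cdkn2c and Birc5 held no E2F site and no CHR element. The Cdc6 window held an E2F site, and those of Mcm2, Ccnb2, Plk1, Bub1 and Aurka held CHR elements. Capitals mark matches of any of the 3 kinds, and the strand given is that of the gene.
Cdk1 (chr10:69352863-69353162, minus strand): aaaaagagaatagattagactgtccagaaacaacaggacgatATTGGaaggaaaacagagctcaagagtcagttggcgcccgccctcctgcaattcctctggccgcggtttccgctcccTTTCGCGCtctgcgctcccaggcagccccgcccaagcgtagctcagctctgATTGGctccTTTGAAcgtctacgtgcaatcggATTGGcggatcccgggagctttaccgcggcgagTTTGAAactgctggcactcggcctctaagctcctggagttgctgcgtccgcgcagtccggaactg
Mcm7 (chr5:138171834-138172133, minus strand): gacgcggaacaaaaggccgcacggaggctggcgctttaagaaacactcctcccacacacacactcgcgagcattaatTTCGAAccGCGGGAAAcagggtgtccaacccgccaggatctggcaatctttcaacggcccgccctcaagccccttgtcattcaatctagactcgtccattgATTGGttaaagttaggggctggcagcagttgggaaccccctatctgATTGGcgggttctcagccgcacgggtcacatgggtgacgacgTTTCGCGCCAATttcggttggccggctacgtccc
Mcm5 (chr8:75109259-75109558, plus strand): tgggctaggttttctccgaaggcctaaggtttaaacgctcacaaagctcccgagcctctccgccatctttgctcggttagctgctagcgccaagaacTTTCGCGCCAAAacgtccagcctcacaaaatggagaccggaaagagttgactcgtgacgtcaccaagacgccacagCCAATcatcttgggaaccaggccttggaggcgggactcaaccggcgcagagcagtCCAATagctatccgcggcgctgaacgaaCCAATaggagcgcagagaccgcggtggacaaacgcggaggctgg
Cdc20 (chr4:118437294-118437593, minus strand): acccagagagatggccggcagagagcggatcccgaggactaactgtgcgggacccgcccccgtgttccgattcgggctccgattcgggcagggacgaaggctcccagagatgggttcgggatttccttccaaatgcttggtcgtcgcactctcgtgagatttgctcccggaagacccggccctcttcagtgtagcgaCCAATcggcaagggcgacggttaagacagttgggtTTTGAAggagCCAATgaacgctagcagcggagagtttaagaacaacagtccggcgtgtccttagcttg
The Cdk1 window held an E2F site, CHR elements at positions -71 and -15 from the start and CCAAT boxes in the reverse direction, and the Cdc20 window a CHR element at position -18 with CCAAT boxes at -53 and -8. Mcm7 held E2F matches at -165 and 16, and Mcm5 had overlapping E2F matches at -153 and -149 and no CHR element. A match describes the letters only and shows neither a bound factor nor a cause of any level.

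The values are array signals in the units in which they were deposited. The highest signal on 19 control probe sets of yeast and Bacillus sequences, 105.6, is used here as the background line, and signals of different probe sets are not compared as RNA amounts. By group means, 23 of the 33 genes were above the line in all 6 groups, among them Mcm2, Mcm3, Mcm4, Mcm5, Mcm7, Pcna, Rrm1, Tk1, the cyclin genes, Cdk1, Cdk2, Cdk4, Cdc20, Plk1, Mad2l1, E2f1, Rb1 and Cdkn2c. Mcm6, Top2a, Bub1, Aurka, Birc5 and Cdkn1b were near background in all 6 groups, and Cdc6, Mki67, Rrm2 and Aurkb were above it in some. The RNA of these adipocyte cultures thus gave measurable signals for most licensing genes and for Cdk1, while the mitotic list was split. Pcna, the sliding clamp of the DNA polymerases, ranged from 506 to 838 over the 18 arrays. Cdk4, the kinase partner of the D-type cyclins, ranged from 1892 to 3340, and Cdkn2c, which encodes an inhibitor of that kinase, from 1345 to 4098. In bulk RNA, fewer cells of a type and less RNA per cell cannot be told apart. None of these levels therefore says what share of the cells was cycling, or which cells of the culture the RNA came from.

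Whether the RNA levels of these genes differ between GH and control is the question the GH comparisons address. They do not show whether cells moved towards or away from division. None of the 33 genes passed the test at any time: 0 were called at 30 min, where 0.0403% of all 12422 probe sets were called, 0 at 4 h (0.121% of all probe sets) and 0 at 48 h (0.338%). With the experiment number as a block the listed genes called were again 0, 0 and 0, where 0.0805%, 0.362% and 1.27% of all probe sets were called. The test was limma on log2(signal + 25) over all 18 arrays, two-sided, with Benjamini-Hochberg adjustment over all probe sets and a threshold of 0.05. Changes below are log2 differences, GH minus control, ± SE with 3 arrays a group, and they understate the change of dim genes. Standard errors, from the fit without the block, ran from 0.16 for Cdk2 to 0.60 for Aurkb and include differences between experiments. The precision in that fit differed widely between genes. By limma the lowest adjusted p of a listed gene was 0.9995, 0.332 and 0.533 at 30 min, 4 h and 48 h. With the block it was 0.9992, 0.144 and 0.204. Unadjusted p was under 0.05 for 0 genes at 30 min, 3 at 4 h and 2 at 48 h, which is 0%, 9.09% and 6.06% of the 33, against 2.45%, 6.86% and 6.5% of all probe sets.

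Genes of the list went both ways. The median change was -0.06 at 30 min, 0.04 at 4 h and 0.05 at 48 h, and that of all probe sets was -0.03, 0.02 and 0.02. The median size of change, without its sign, was 0.11, 0.29 and 0.23 in the list and 0.13, 0.18 and 0.19 over all probe sets. Without the 3 arrays with conflicting descriptions the list's median was 0.07 at 30 min, -0.15 at 4 h and 0.04 at 48 h. At 30 min 14 genes were higher and 19 lower with GH, at 4 h 17 and 16, and at 48 h 19 and 14. The 3 experiments gave different medians at 48 h, where the list's change was -0.02 in experiment 1, -0.34 in experiment 2 and 0.34 in experiment 3. At 30 min the GH arrays lay wholly above the control arrays for 0 genes (2.32% of all probe sets) and wholly below for 1 (4.51%). At 4 h they lay above for 4 genes (6.26%) and below for 1 (5.13%), and at 48 h above for 3 (5.23%) and below for 2 (4.92%). In either direction that was 1, 5 and 5 of the 33 genes, against 6.83%, 11.4% and 10.2% of all probe sets.

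**Figure D1:**
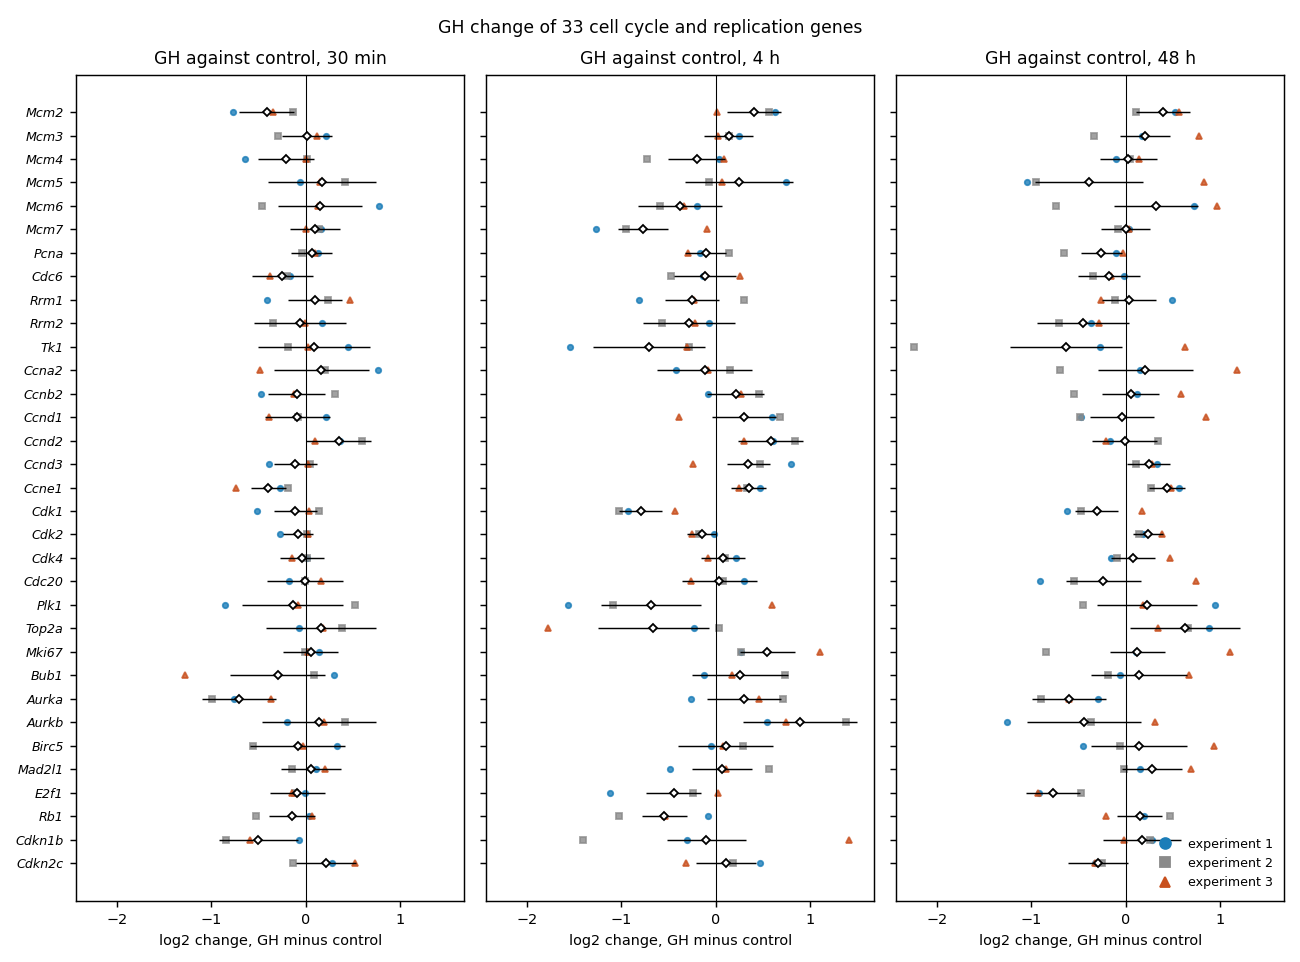
Log2 change, GH minus control, of the 33 genes at 30 min, 4 h and 48 h. Coloured symbols are the 3 experiments and open diamonds with bars the limma estimate ± SE (n = 3 arrays a group), and 0 of 33 genes passed the threshold at each time.

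Among licensing and replication fork genes, Mcm7, a subunit of the helicase ring, stood lower at 4 h in 2 experiments. Its signal was 141, 188 and 389 in GH 4 h arrays of experiments 1, 2 and 3, against 374, 387 and 418 in control 4 h arrays. The GH arrays of experiments 1 and 2 were below all control arrays, and that of experiment 3 lay among them. The change was -0.77 ± 0.26 (unadjusted p = 0.0102, adjusted p = 0.49 by limma), with the same sign in 3 of 3 experiments. The GH 4 h array of experiment 3 is 1 of the 3 with a conflicting description, and without it the change was -1.15 ± 0.21 and passed (adjusted p = 0.0278 by limma). Without all 3 such arrays it was -1.15 ± 0.20 (adjusted p = 0.0428), and without experiment 3 altogether -1.11 ± 0.20 (adjusted p = 0.0468), but without the GH 4 h array of experiment 1 it was -0.49 ± 0.26 (adjusted p = 0.909). At 30 min and 48 h Mcm7 had changes of 0.10 ± 0.26 and -0.00 ± 0.26.

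Mcm2, another subunit, had 121, 145 and 219 in GH 30 min arrays and 223, 161 and 285 in control 30 min arrays. Each GH array was below the control of its own experiment, but the groups overlapped (-0.42 ± 0.29, unadjusted p = 0.17). The change ran from -0.63 to -0.24 when single arrays or experiments were left out. At 4 h Mcm2 had 343, 298 and 274 with GH, against 214, 194 and 271 in controls, so the groups lay just apart in the other direction (0.40 ± 0.29, adjusted p = 0.898 by limma). Mcm5 showed experiments of opposite sign at 48 h, with changes of -1.04, -0.95 and 0.83 in experiments 1, 2 and 3. The other Mcm5 probe set, with a mean signal of 101, gave 0.42, -0.15 and -1.03 there. At 4 h that probe set gave 0.89 ± 0.45, with the groups apart. Of the other 5 genes of this group, Mcm3, Mcm4, Mcm6, Pcna and Cdc6, changes over the 3 times ran from -0.38 (Mcm6 at 4 h) to 0.32 (Mcm6 at 48 h), and Mcm6 was near background.

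Rrm1 and Rrm2, the ribonucleotide reductase genes, and Tk1 are the nucleotide supply genes. None passed, and the 3 had a median change of 0.09 at 30 min, -0.29 at 4 h and -0.45 at 48 h. Tk1 was the widest, with -0.71 ± 0.59 at 4 h and -0.63 ± 0.59 at 48 h. At 48 h its signal was 163, 53.8 and 406 in GH arrays, against 203, 348 and 253 in controls. The GH array of experiment 2 was the lowest and that of experiment 3 the highest of the 6. The other Tk1 probe set, near background, gave 0.71 ± 0.48 at 4 h, with the groups apart, and -0.03 ± 0.48 at 48 h.

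Cdk1, the kinase that drives entry into mitosis, had the lowest p of any listed gene in a GH comparison. At 4 h its signal was 319, 360 and 559 in GH arrays, against 632, 756 and 764 in control arrays. All 3 GH arrays were below all 3 control arrays, by -0.80 ± 0.23 (unadjusted p = 0.00312, adjusted p = 0.332 by limma). Without the arrays with conflicting descriptions the change was -1.02 ± 0.19 (adjusted p = 0.0566 by limma). At 48 h Cdk1 had 337, 470 and 451 with GH, against 533, 664 and 398 in controls, and at 30 min 494, 724 and 616, against 715, 653 and 602. The groups overlapped at both of those times, with changes of -0.31 ± 0.23 and -0.11 ± 0.23.

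Ccne1 encodes cyclin E1, the partner of Cdk2 at the start of DNA replication, and its GH arrays lay apart from control arrays at all 3 times. At 30 min it had 420, 402 and 258 in GH arrays, against 511, 459 and 447 in control arrays. At 4 h the signals were 464, 552 and 471 with GH, against 329, 435 and 393 in controls. At 48 h they were 518, 435 and 588 with GH, against 342, 359 and 416 in controls. The GH arrays were thus lower at 30 min and higher at 4 h and 48 h, in 3 of 3 experiments each time. The changes were -0.40 ± 0.19, 0.35 ± 0.19 and 0.43 ± 0.19, with adjusted p of 0.9995, 0.807 and 0.69 by limma. Without the GH 30 min array of experiment 3 the change at 30 min was -0.19 ± 0.18. The difference between the GH effect at 48 h and that at 30 min was 0.83 ± 0.26 (unadjusted p = 0.00648) and did not pass the adjustment (adjusted p = 0.655 by limma). The control arrays of Ccne1 themselves were lower at 4 h and 48 h than at 30 min, by -0.28 ± 0.19 and -0.33 ± 0.19.

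Among the other cyclins and kinases, Ccnd2 had 545, 704 and 412 in GH 4 h arrays, against 351, 383 and 330 in control 4 h arrays, and lay apart (0.58 ± 0.34, adjusted p = 0.832 by limma). Ccnd3, the brightest D-type cyclin probe set, lay apart at 48 h with 1498, 1283 and 1523 in GH arrays, against 1184, 1190 and 1249 in controls (0.24 ± 0.23). D-type cyclins carry growth factor signals to Cdk4, and Ccnd1 had changes between -0.09 and 0.30. Cdk2 had 345, 264 and 352 in GH 48 h arrays, against 300, 238 and 265 in control 48 h arrays. The groups overlapped although each GH array exceeded the control of its experiment (0.23 ± 0.16, adjusted p = 0.895 by limma). Without the GH 48 h array of experiment 2 the change was 0.36 ± 0.16. The other Cdk2 probe set, near background, gave -0.02 ± 0.51 at 48 h. Cdk4 had changes between -0.04 and 0.08 at the 3 times, and Ccna2 and Ccnb2 between -0.12 and 0.21.

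In the mitosis group, Mki67, a nuclear antigen of cycling cells, had 139, 139 and 235 in GH 4 h arrays, against 111, 112 and 95.9 in control 4 h arrays. All GH arrays were above all control arrays, with experiment 3 furthest (0.55 ± 0.29, adjusted p = 0.799 by limma). Without the GH 4 h array of experiment 3 the change was 0.32 ± 0.31. This probe set carries an r ending, which marks a probe choice made outside the usual rules, and the other Mki67 probe set, near background, gave 0.06 ± 0.60. Aurka, a kinase of the mitotic spindle, was near background throughout. At 30 min it had 46.3, 10 and 86.7 in GH arrays, against 95.3, 44.8 and 119 in control arrays, and at 48 h 50, 27.3 and 51, against 67, 72.6 and 90.2. Each GH array was below the control of its experiment at both times, and at 48 h the groups lay apart (-0.71 ± 0.39 and -0.60 ± 0.39, adjusted p = 0.9995 and 0.89 by limma). Without the GH 30 min array of experiment 2 the change at 30 min was -0.26 ± 0.37, and without that of experiment 3 it was -1.09 ± 0.39.

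Top2a, which untangles DNA, lay apart at 48 h near background, with 44.1, 30.1 and 19.2 in GH arrays, against 12.5, 9.9 and 10 in control arrays. Plk1, which times mitotic entry, had changes of -1.57, -1.09 and 0.60 in experiments 1, 2 and 3 at 4 h. That probe set carries an f ending, which marks possible hybridisation of related transcripts. A second Plk1 probe set, above background, gave -0.36, 0.38 and 0.53 (0.19 ± 0.33), and a further one, near background, 0.13 ± 0.56. Aurkb had 0.55, 1.37 and 0.75 at 4 h, with 3 of the 6 arrays under the background line. Cdc20, the activator of the anaphase-promoting complex, had 0.04 ± 0.40 at 4 h and -0.24 ± 0.40 at 48 h. Bub1, Birc5 and Mad2l1 had changes between -0.30 and 0.28.

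Among the regulators, E2f1, a factor that activates replication genes, stood lower at 48 h. Its signal was 87.3, 166 and 86.3 in GH arrays, against 188, 240 and 186 in control arrays. All GH arrays were below all control arrays, and 2 of them were under the background line (-0.77 ± 0.29, unadjusted p = 0.0168, adjusted p = 0.533 by limma). The probe set carries an f ending, which marks possible hybridisation of related transcripts, and the other E2f1 probe set, near background, gave -0.25 ± 0.30 at 48 h and 0.72 ± 0.30 at 30 min. Rb1, which holds E2F factors back, had 303, 195 and 169 in GH 4 h arrays, against 322, 420 and 256 in control 4 h arrays. Each GH array was below its own control, and the groups overlapped (-0.55 ± 0.24, adjusted p = 0.688 by limma), with -0.31 ± 0.28 when experiment 2 was left out. The other Rb1 probe set, near background, gave -0.09 ± 0.20 at 4 h. The dim kinase inhibitor gene Cdkn1b had 51, 27.9 and 23.2 at 30 min with GH, against 54.8, 70 and 47.6 in controls (-0.50 ± 0.42). Its probe set carries an r ending, and the other Cdkn1b probe set, also near background, gave -0.01 ± 0.28.

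**Figure D2:**
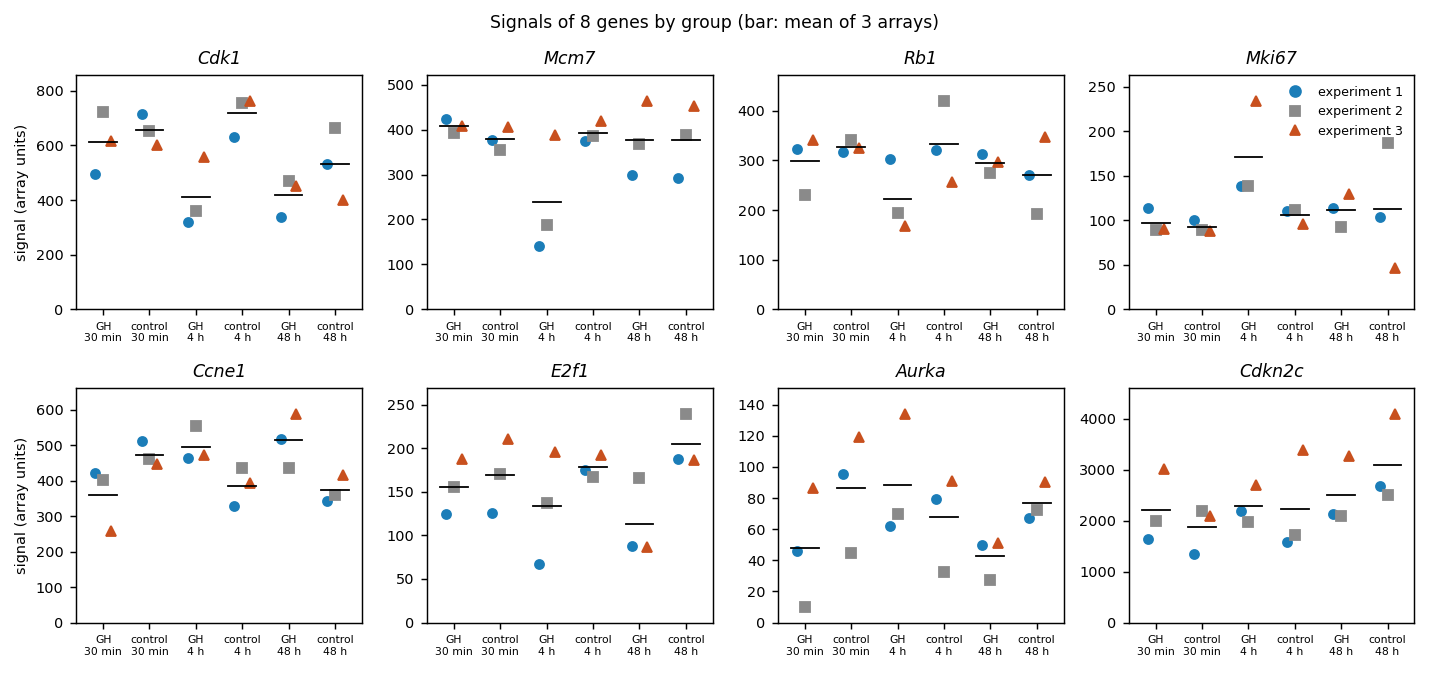
Signal on each array (array units, axis from 0) for 8 genes in the 6 groups, with GH left of control at each time; symbols are the experiments and bars the group means. At 4 h all GH arrays of Cdk1 lie below the controls, while the GH array of experiment 3 for Mcm7 (389) lies among its controls.

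The controls answer whether the genes moved with time in culture without GH. None of the 33 passed between control groups, where 0.129% of all probe sets were called at 48 h against 30 min, 0.0886% at 4 h against 30 min and 0% at 48 h against 4 h. With the block 0 listed genes passed again, and 0.338%, 0.0966% and 0.00805% of all probe sets did. Unadjusted p was under 0.05 for 1, 0 and 0 listed genes in these comparisons and for 678, 371 and 512 of all probe sets. Cdkn2c, an inhibitor of Cdk4 and Cdk6, had 2682, 2501 and 4098 in control 48 h arrays, against 1345, 2186 and 2092 in control 30 min arrays. Every 48 h array was above every 30 min array (0.71 ± 0.32, unadjusted p = 0.0403, adjusted p = 0.895 by limma). The control 48 h array of experiment 3 has a conflicting description, and without the arrays so described the difference was 0.49 ± 0.34. With GH, the same gene had 2141, 2092 and 3272 at 48 h.

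Cdk2 was lower in control 48 h arrays (300, 238 and 265) than in control 30 min arrays (353, 307 and 302), on groups that lay apart (-0.24 ± 0.16), while the mean of both Cdk2 probe sets gave 0.03 ± 0.30. At 48 h against 30 min, 1 of the 33 genes lay wholly above (6.49% of all probe sets) and 2 lay wholly below (3.94%), together against 10.4%. Cdk1 had 533, 664 and 398 at 48 h, against 715, 653 and 602 at 30 min, with overlap (-0.32 ± 0.23, and -0.13 ± 0.24 without the control 48 h array of experiment 3). The GH effect was also compared between times, and 0 of the 33 genes passed in any of the 3 differences (4 h minus 30 min, 48 h minus 4 h and 48 h minus 30 min), where 0.0161%, 0.00805% and 0.0644% of all probe sets did. With the block 0 listed genes passed again, with 0.0725%, 0% and 0.177% of all probe sets. Without the block, unadjusted p was under 0.05 for 2, 0 and 1 listed genes and for 549, 611 and 621 of all probe sets.

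More of the listed genes passed between experiments than between GH and control. It was noticed in the signals and then tested, in a model with group and experiment as terms, so each experiment was compared over 6 arrays with the groups balanced. In experiment 3 against experiment 1, 13 of the 33 genes (39.4%) passed, all higher in experiment 3, where 14.2% of all probe sets passed and 7.19% passed as higher. In experiment 3 against experiment 2, 10 of 33 (30.3%) passed, all higher in experiment 3, where 12.8% of all probe sets passed and 6.67% as higher. In experiment 2 against experiment 1, 0 of 33 passed by limma, where 0.105% of all probe sets passed. In that comparison unadjusted p was under 0.05 for 4 of the 33 genes and for 1521 of all 12422 probe sets. Of the 13, 4 (Cdc6, Rrm2, Bub1 and Birc5) were under the background line on all arrays of experiment 1, and of the 10, 3 (Rrm2, Bub1 and Aurka) on all arrays of experiment 2. The median differences of the list were 0.43, 0.46 and 0.05, against 0.03, 0.08 and -0.04 over all probe sets. The first pair of comparisons share the arrays of experiment 3. Arrays of 1 experiment may share a culture, so these p-values measure the spread between arrays within 3 experiments and not between cultures.

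**Figure D3:**
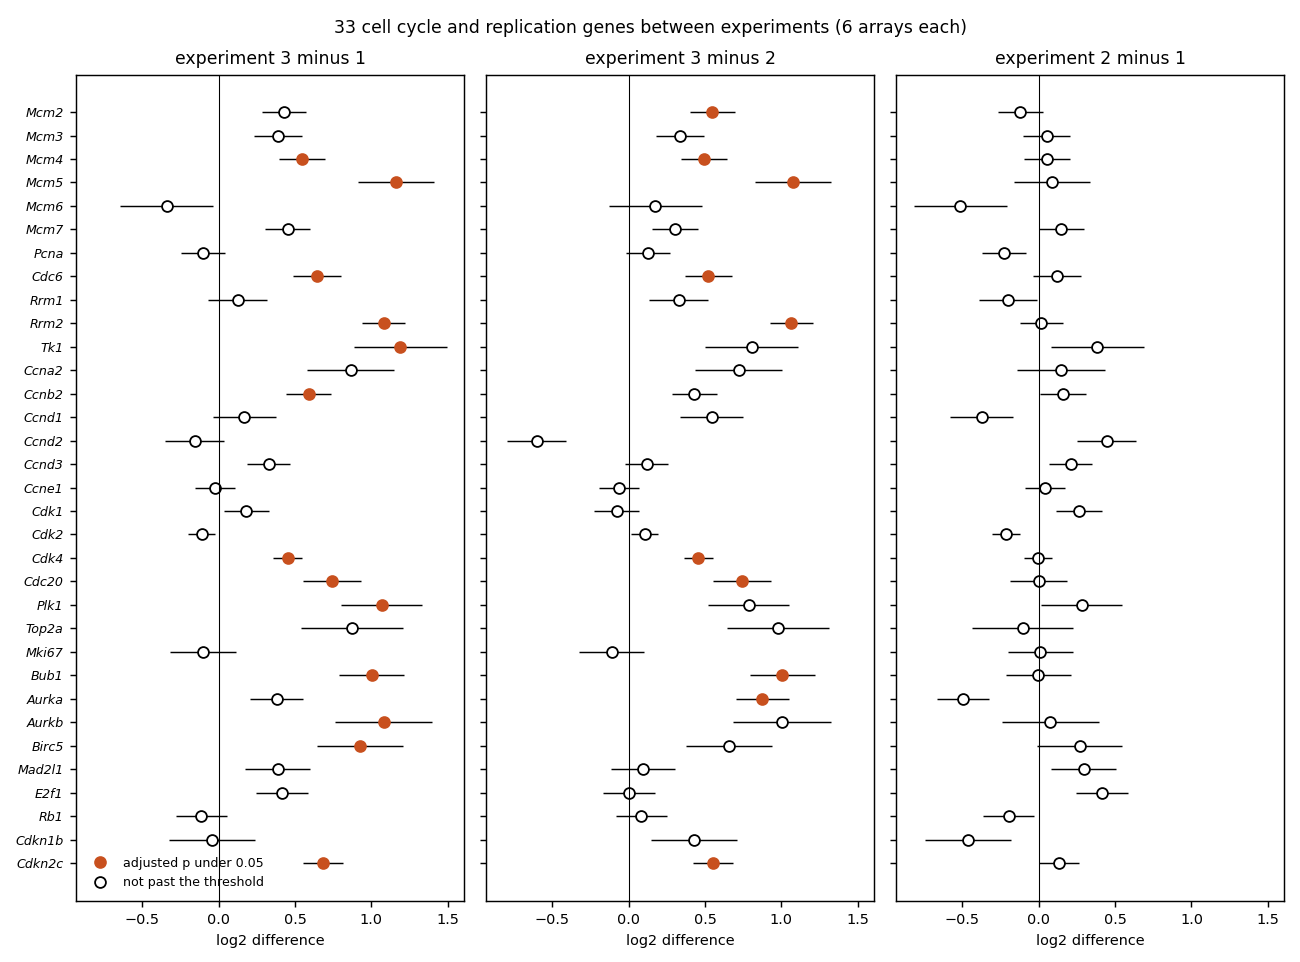
Log2 differences ± SE of the 33 genes between experiments, from limma with group and experiment as terms (6 arrays an experiment). Filled points passed the threshold: 13 genes in experiment 3 against 1, 10 in experiment 3 against 2 and 0 in experiment 2 against 1.

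By role, the genes that passed in experiment 3 against experiment 1 were 3 of 8 in licensing, 2 of 3 in nucleotide supply, 2 of 9 cyclins and kinases, 5 of 9 in mitosis and 1 of 4 regulators. Against experiment 2 the counts were 4, 1, 1, 3 and 1. Rrm2, the regulated subunit of ribonucleotide reductase, was the clearest. Its lowest, median and highest signals were 155, 167 and 200 in experiment 3, against 41.1, 75.7 and 100 in experiment 1 and 47.3, 72.4 and 101 in experiment 2. Every array of experiment 3 was above every array of the others, which all lay under the background line, so the level was at least 1.64-fold higher in experiment 3. The adjusted p was 0.000378 against experiment 1 and 0.000412 against experiment 2 by limma.

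Mcm5 had 184, 352 and 379 in experiment 3, against 41.6, 144 and 240 in experiment 1 and 99.7, 142 and 216 in experiment 2. The ranges overlapped only through the control 48 h array of experiment 3, the lowest of that experiment. The differences were 1.16 ± 0.25 and 1.07 ± 0.25 (adjusted p = 0.00787 and 0.0125 by limma), but with the mean of both Mcm5 probe sets they were 0.66 and 0.43 and no longer passed (adjusted p = 0.0559 and 0.201). Mcm4, a further helicase subunit, had 343, 425 and 511 in experiment 3, against 234, 272 and 379 in experiment 1 and 197, 311 and 344 in experiment 2 (0.54 ± 0.15 and 0.49 ± 0.15, adjusted p = 0.0292 and 0.0494). Cdc6, the loading factor, had 101, 131 and 179 in experiment 3, against 54.0, 82.0 and 89.4 in experiment 1 and 62.9, 77.0 and 114 in experiment 2, and passed in both comparisons (adjusted p = 0.0151 and 0.0432). All 6 arrays of experiment 1 were under the background line, so Cdc6 was at least 1.24-fold higher in experiment 3 than there, and the difference from experiment 2 was 0.52 ± 0.16. Mcm2 passed against experiment 2 (0.55 ± 0.14), while Mcm7 (0.45 ± 0.15 against experiment 1, adjusted p = 0.0604) and Mcm3 did not, and Pcna had -0.10 ± 0.14 and 0.13 ± 0.14.

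Tk1 had 253, 468 and 593 in experiment 3, against 77.1, 193 and 273 in experiment 1, where it passed (1.19 ± 0.30, adjusted p = 0.0197 by limma), and 53.8, 317 and 383 in experiment 2, where it did not (0.81 ± 0.30, adjusted p = 0.103). Cdk4 had 2400, 2764 and 3340 in experiment 3, against 1898, 1945 and 2220 in experiment 1 and 1892, 1997 and 2215 in experiment 2. The ranges lay wholly apart (0.45 ± 0.09 and 0.46 ± 0.09, adjusted p = 0.00709 and 0.00695). Cdkn2c, the inhibitor of this kinase, passed in the same direction (0.68 ± 0.13 and 0.55 ± 0.13, adjusted p = 0.00424 and 0.0144), with the ranges overlapping. Ccnb2, a cyclin of mitosis, passed against experiment 1 (0.59 ± 0.15). Cdk1, Cdk2 and Ccne1 had differences between -0.11 and 0.18 in both comparisons, and Ccnd2 had -0.60 ± 0.19 against experiment 2 (adjusted p = 0.0577).

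Of the mitotic genes, Cdc20 had 303, 406 and 536 in experiment 3, against 153, 248 and 310 in experiment 1 and 166, 252 and 256 in experiment 2. It lay wholly apart from experiment 2 and overlapped experiment 1 through 1 array each (0.74 ± 0.19 in both comparisons, adjusted p = 0.0195 and 0.0207 by limma). Plk1, on its probe set with the f ending, passed against experiment 1 (1.07 ± 0.27) and had 0.79 ± 0.27 against experiment 2. Aurkb and Birc5, which sit together in the chromosomal passenger complex, passed against experiment 1 (adjusted p = 0.0381 and 0.0433). Aurkb differed by 1.08 ± 0.32. Birc5 was under the background line on all 6 arrays of experiment 1 and its level at least 1.16-fold higher in experiment 3, where 4 of 6 arrays were above the line. Aurka passed against experiment 2 (adjusted p = 0.00522), with all 6 arrays of experiment 2 and 4 of 6 of experiment 3 under the background line, so no size is given. Bub1 passed in both comparisons (adjusted p = 0.00762 and 0.00797) on signals under the background line on all 18 arrays, so no size is given for it either. Mki67 had -0.10 ± 0.21 and -0.11 ± 0.21.

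The arrays of experiment 3 were not all alike. The median deviation of the 33 genes from their own means was 0.28 to 0.40 on 5 arrays of experiment 3, with 25 to 28 of 33 genes above their mean, but 0.06 on its control 48 h array, with 18 genes. That array is 1 of the 3 with a conflicting description. The 12 arrays of experiments 1 and 2 ran from -0.24 to 0.06. Without all 3 such arrays, 11 genes passed against experiment 1 and 12 against experiment 2. Of all probe sets 1275 and 1428 then passed, against 1758 and 1589 with all arrays. Without the control 48 h array of experiment 3 alone, 15 genes passed in each of the comparisons with experiments 1 and 2. Without the GH 48 h array of experiment 2, 6 passed against experiment 2. For the runs with a single array left out no count over all probe sets is given here. They therefore do not show whether the list moved apart from the other probe sets.

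**Figure D4:**
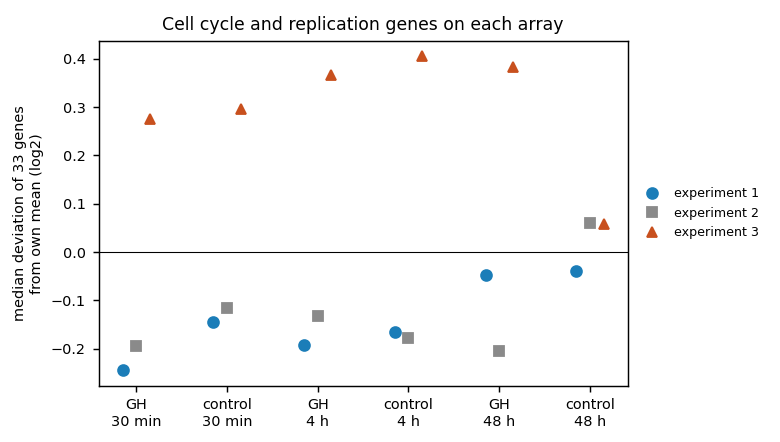
Median over the 33 genes of the deviation from each gene's own mean (log2 of signal + 25), for each array by group. On 5 of 6 arrays of experiment 3 the median is 0.28 to 0.40, on its control 48 h array 0.06, and on the arrays of experiments 1 and 2 between -0.24 and 0.06.

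With only the 9 GH arrays in the model 0 genes passed against experiment 1 and 1 against experiment 2, and with only the 9 control arrays 1 and 1. All probe sets called fell likewise, to 112 and 145 in GH arrays and 103 and 83 in control arrays, against 1758 and 1589 in the whole set. Sizes were computed again for the genes with the lowest p. Against experiment 1 Mcm5 had 1.40 ± 0.35 in GH arrays and 0.93 ± 0.32 in control arrays, Cdkn2c 0.59 ± 0.17 and 0.77 ± 0.22, and Cdk4 0.48 ± 0.16 and 0.42 ± 0.15. Against experiment 2 Mcm5 had 1.35 ± 0.35 and 0.80 ± 0.32, Cdkn2c 0.56 ± 0.17 and 0.54 ± 0.22, and Cdk4 0.50 ± 0.16 and 0.42 ± 0.15.

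Part of the preadipocyte or fibroblast markers moved with experiment 3. Of 10 measured, 5 passed as higher in experiment 3 against experiment 1 and 6 against experiment 2 by limma at the same threshold, and 0 passed as lower. Of all probe sets, 7.19% and 6.67% passed as higher and 6.96% and 6.13% as lower. Against experiment 1, Pdgfra (0.48 ± 0.26), Vim (0.36 ± 0.28), Postn (-0.05 ± 0.16), Dcn (-0.11 ± 0.12) and Fn1 (-0.16 ± 0.11) did not pass. The summed signal of all 10 markers was 49134 to 62422 in experiment 3, against 24480 to 51347 in experiment 1 and 19730 to 41580 in experiment 2. Dlk1, a membrane protein of preadipocytes, averaged 7531 ± 1503 in experiment 3, against 2434 ± 812 in experiment 1 and 3549 ± 751 in experiment 2 (SD, n = 6 arrays), with differences of 1.65 ± 0.19 and 1.09 ± 0.19. Col1a2 had 1.19 ± 0.11 and 1.28 ± 0.11, and Thy1 1.10 ± 0.20 and 1.17 ± 0.20. Of 9 adipocyte markers, Pparg and Retn passed as lower in experiment 3 against experiment 1, and Pparg, Cebpa, Retn and Slc2a4 against experiment 2. Retn had -0.79 ± 0.09 and -0.55 ± 0.09, while Adipoq had -0.10 ± 0.12 and 0.04 ± 0.12. The summed signal of the 9 adipocyte markers was 72970 to 92784 in experiment 3, against 83898 to 105493 in experiment 1 and 71491 to 111398 in experiment 2. The control 48 h array of experiment 3 kept a Dlk1 signal of 7189 and a Col1a2 signal of 9502. Of 6 macrophage markers, Cd14 and Cd68 passed as lower in experiment 3 against experiment 1 and Cd14 against experiment 2, with summed signals of 1394 to 3333 in experiment 3, against 2810 to 4814 in experiment 1 and 2427 to 4685 in experiment 2. The summed signal of 4 endothelial markers was 80.2 to 313 in experiment 3, against 82 to 253 in experiment 1 and 64.7 to 157 in experiment 2. That of 3 muscle markers was 370 to 588 in experiment 3, against 387 to 544 in experiment 1 and 391 to 596 in experiment 2, with Myog passing as lower against experiment 1 (-0.30 ± 0.09, adjusted p = 0.0366 by limma). The part of these markers in the result was not tested.

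**Figure D5:**
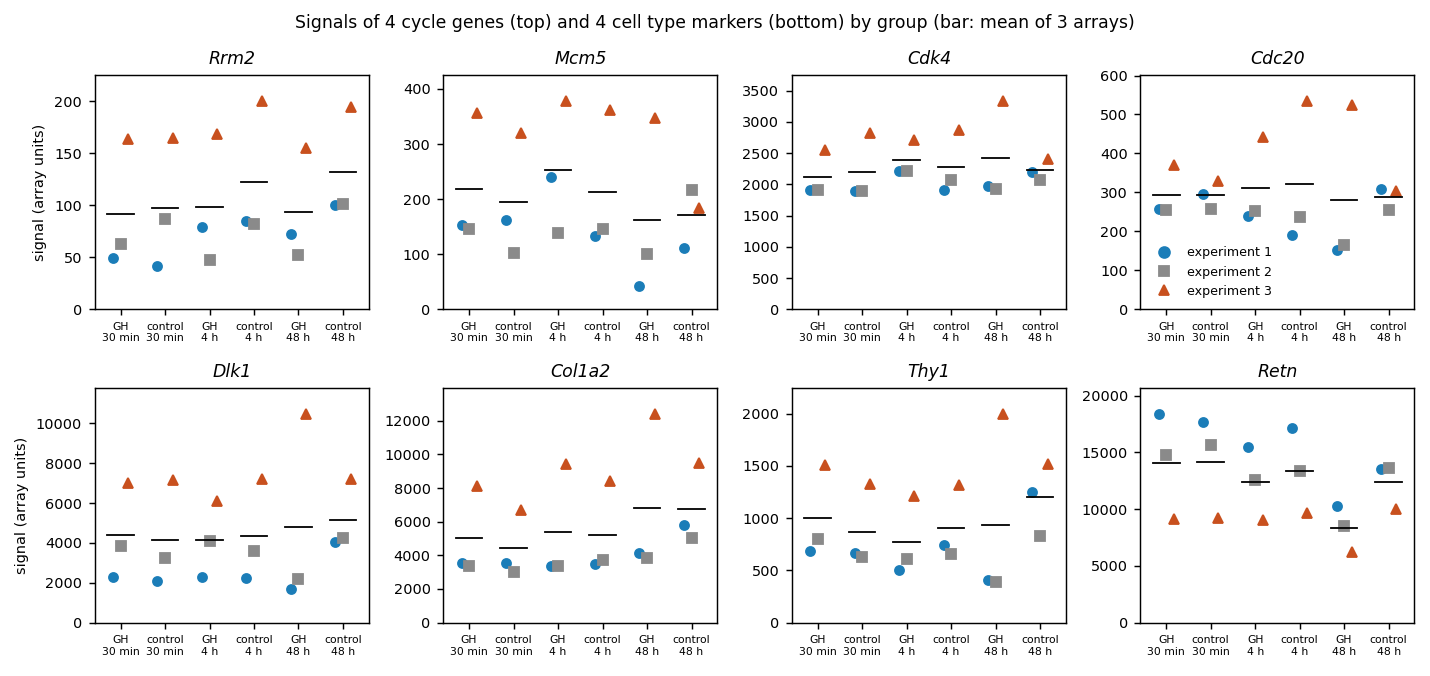
Signal on each array (array units, axis from 0) of 4 cycle genes, the preadipocyte or fibroblast markers Dlk1, Col1a2 and Thy1 and the adipocyte marker Retn, with GH left of control at each time. Triangles, experiment 3, lie above the other symbols for Rrm2, Cdk4, Dlk1, Col1a2 and Thy1 in every group and below them for Retn.

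A wider list of 115 further genes of the same pathways was read alongside, of which 95 had a probe set: 39 of 45 for replication, 35 of 42 for mitosis and 21 of 28 for other regulators. With GH, 0 of the 95 passed at 30 min, 0 at 4 h and 1 at 48 h, where 0.0403%, 0.121% and 0.338% of all probe sets did. Unadjusted p was under 0.05 for 1, 4 and 5 of the 95, against 2.45%, 6.86% and 6.5% of all probe sets. The gene that passed at 48 h was Cdkn1a, which encodes the kinase inhibitor p21. Its signal was 1205, 1447 and 1148 in GH 48 h arrays, against 498, 531 and 578 in control 48 h arrays. The groups lay far apart, and the gene rose by 1.20 ± 0.22 (adjusted p = 0.0298 by limma) in 3 of 3 experiments. Its other probe set gave 0.43 ± 0.28 (adjusted p = 0.886). Ccng1, a cyclin gene known as a p53 target, had 2558, 2242 and 1298 with GH, against 1049, 1212 and 922 in controls, which also lay apart (0.87 ± 0.22, adjusted p = 0.155). Cdkn2b, an inhibitor of Cdk4, had 0.55 ± 0.21.

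At 4 h the lowest p values of the wider list went to Cdc7 (0.83 ± 0.29) and Ccnc (0.62 ± 0.23), which were higher with GH, and to Orc5 (-0.45 ± 0.20) and Rpa3 (-0.60 ± 0.31), which were lower, none past the threshold. At 30 min these were Cdc45 (0.70 ± 0.30), E2f3 (0.54 ± 0.30), Ttk (-0.61 ± 0.32) and Lmnb1 (-0.37 ± 0.25). Pola2 (-0.32 ± 0.17) and Rpa3 (-0.58 ± 0.31) were the lower ones at 48 h. Between experiments, 18 of the 95 passed as higher and 3 as lower in experiment 3 against experiment 1, and 17 and 3 against experiment 2. That is 18.9% and 17.9% of the 95 as higher, against 7.19% and 6.67% of all probe sets, and 3.16% as lower in both, against 6.96% and 6.13%. The mitotic list held 11 and 10 of the higher ones, the replication list 7 and 7, and the regulators 0 and 0. The spindle-linked Stmn1 had 1.39 ± 0.24 and 1.19 ± 0.24. Prc1, which bundles the central spindle, averaged 174 in experiment 3, against 47.1 in experiment 1 and 71.7 in experiment 2. Racgap1 of cytokinesis averaged 176 in experiment 3, against 55.7 in experiment 1 and 79.7 in experiment 2, and Uhrf1, which maintains DNA methylation at the fork, 209 in experiment 3, against 71.2 in experiment 1 and 83.7 in experiment 2. The last 3 passed in both comparisons, with means in experiments 1 and 2 under the background line. The genes that were lower in both comparisons were Orc4 of the origin recognition complex (-0.45 ± 0.10 and -0.38 ± 0.10), Wee1, an inhibitor of Cdk1 (-0.50 ± 0.16 and -0.66 ± 0.16), and Cdkn2a, which encodes the p16 and p19 inhibitors (-0.71 ± 0.12 and -0.52 ± 0.12).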

How the data were processed

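The deposited table holds linear signal intensities, 1 value for each probe set on each array. The summary method, software and scaling are not given in the sources used here. On every array the mean signal with 2% trimmed from each end was 500.3, and array medians ran from 148.7 to 182.45, so the deposited intensities appear scaled to a common mean. Precision is limited by the number of arrays.

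Of 12488 probe sets, 66 controls were left out and 12422 were tested in R 4.3.3 with limma 3.58.1 on log2(signal + 25), with 6 groups in 1 model (12 residual degrees of freedom). P-values were adjusted over all of them. Genes were named through the platform annotation (10833 probe sets with 1 symbol, 396 with several, 1193 with none), and all 33 listed genes with a probe set matched RefSeq by gene ID. Named with all their values were listed genes past the threshold with or without the experiment number as a block, and the 4 with the lowest p in each GH comparison and in control 48 h against 30 min. Of the wider list, genes past the threshold were named, and otherwise the 2 with the lowest p in each direction in each GH comparison. Further genes were picked after their values were seen, and the comparison of experiments was added after seeing the data.

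The genes and lists were chosen with earlier results of these data known. Same-numbered GH and control arrays deviated from their group means together at each time (correlations 0.151 to 0.457 over probe sets). At 48 h the pair of experiment 2 had 0.151, below the highest correlation with another experiment number (0.213). The remaining pairs were above theirs. The experiment numbers from the titles were used to pair the samples, and the model with that block is given where it changes a call. The labels do not say whether experiments are separate cultures, and the p-values therefore reflect only how these arrays vary. The scripts were tested on simulated data, and the alternatives tried were the block, the pseudocount, scaling, dim probe sets, the choice of probe set and arrays left out.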

Additional observations from a re-analysis of the deposited data

How the results depend on the processing

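With the experiment number as a block, 0 listed genes passed in each of the 9 planned comparisons, as without it. At 48 h 4 of the 33 had an unadjusted p under 0.05 with the block, against 10.3% of all probe sets, and no call changed. The count at 4 h was 1 (Mcm7, lower) when the 3 arrays with conflicting descriptions were left out. In that run 32 of all probe sets passed, against 15 with all arrays. The count was 0 to 1 over arrays or experiments left out in turn. Counts of the other 8 planned comparisons were 0 in every alternative run. Against experiment 1, experiment 3 gave 9 to 15 genes when single arrays were left out, 0 with only GH arrays and 1 with only control arrays. Against experiment 2 it gave 6 to 15, 6 with arrays centred on their medians, 1 with only GH arrays and 1 with only control arrays. Counts over all probe sets are not given for the runs with single arrays or experiments left out or with arrays centred. The models of only GH or only control arrays held 9 arrays each, and the cause was otherwise not tested. The control change of Cdk2 was 0.031 with the mean of its probe sets. The filter on dim probe sets kept 25 of the 33 genes. Of 1095 recomputed values, 1020 were rated the same. For a gene that meant the same direction and side of the threshold, and for a median a value within its spread between experiments. A count was rated the same within 1.5-fold, and counts of 0 that stayed 0 are among the 1020. Genes near the background line, among them Bub1, Aurka and Top2a, carry little information on RNA amount.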
